A study of Mus musculus with 30 samples.

Results

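The genes described here encode the nuclear share of the oxidative phosphorylation machinery, the respiratory chain and ATP synthase of the inner mitochondrial membrane, in natural killer (NK) cells taken from blood, spleen, a skin graft and the recipient's own skin. They were chosen by symbol alone: gene names that start with Nduf followed by a, b, c, s or v and a digit (complex I), with Uqcr (complex III), with Cox4 to Cox8 (complex IV) or with Atp5 (complex V), leaving out pseudogene symbols and predicted genes. Of 80 such symbols, 71 reached a signal of 10 in 3 or more of the 30 libraries and were tested among 16045 genes. These were 36 of 37 symbols for complex I, 8 of 8 for complex III, 11 of 18 for complex IV and 16 of 17 for complex V. In recipient skin of the B6 model 37 of the 71 fell against spleen and 1 rose, beside 11% and 17.9% of all tested genes. The number that fell ranged from 2 to 50 without 1 library, and was 0 with the groups compared fitted alone. In the other comparisons 1 member in all passed the threshold, a rise in a comparison where 0.193% of all genes rose.

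Complex I takes electrons from NADH, complex III passes them to cytochrome c, complex IV hands them to oxygen, and the proton gradient that these pumps build is used by complex V to make ATP. The catalytic cores of complexes I, III and IV are built in part from subunits encoded in the mitochondrial DNA, and a large set of short nuclear-encoded accessory subunits surrounds them. Resting NK cells are known to rely largely on oxidative phosphorylation, and activated NK cells raise both respiration and glycolysis.

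RNA was measured in 10 groups of 3 libraries. In the B6 model the recipients were C57BL/6 mice with iCre in both NKp46 alleles and both Rosa alleles carrying mTmG, they received m157tg B2m-/- skin, and cells were taken at day 20. In the F1 model the recipients were C57BL/6xBalb/c mice with 1 NKp46 allele carrying iCre and 1 Rosa allele carrying mTmG, they received m157tg B2m+/- skin, and cells were taken at day 10. In each model NKp46-GFP+ cells were sorted, by CD49b from blood, spleen and graft, and by CD49a from graft and recipient skin. m157 is a viral ligand of the activating receptor Ly49H, and B2m is needed for MHC class I at the cell surface. The reporter marks cells in which the NKp46 promoter has driven Cre, now or earlier, so it is a lineage mark and not a measure of current NKp46. Every recipient carried a graft and the reporter, and blood, spleen and recipient skin come from grafted animals. The labels do not say whether libraries are separate animals, so p-values measure the spread between these libraries, which may be technical.

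The deposited signal summed to between 3502576 and 5717946 per library in circulating cells (blood and spleen, 12 libraries) and to between 1529124 and 3988756 in skin (18 libraries). The summed level of 14 NK cell markers was 15167 to 18491 in circulating libraries and 385 to 17194 in skin libraries. Within skin it was 5495 to 11419 in B6 graft CD49b+ cells, 385 to 10201 in B6 graft CD49a+ cells, 669 to 6159 in B6 recipient skin, 9239 to 17194 in F1 graft CD49b+ cells, 1692 to 10559 in F1 graft CD49a+ cells and 1704 to 1927 in F1 recipient skin. The mean level of 20 pan-leukocyte transcripts, as a percent of its circulating mean, was 87.4% to 107% in circulating libraries and 7.43% to 81.4% in skin libraries. It was more than 2 log2 units below that mean in 7 skin libraries: libraries 1 and 3 of B6 graft CD49a+ cells (7.43% and 15.0%), libraries 1 and 3 of B6 recipient skin (16.8% and 10.5%), library 3 of F1 graft CD49a+ cells (24.1%), and libraries 2 and 3 of F1 recipient skin (19.0% and 9.74%). In those libraries the labelled NK identity rests on a low marker level. The 11 keratinocyte markers summed to 6.08 to 107 in circulating and 19.6 to 4946 in skin libraries, and the 11 fibroblast markers to 6.87 to 274 and 97.2 to 4860. In such bulk samples fewer cells of a type and less RNA per cell cannot be told apart.

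RefSeq (GRCm38.p6) had a promoter entry for 61 of the 71 members, a window from 250 bases before to 50 bases after the gene start. The letters GCGCA, any 1 base, GCGC (NRF1, nuclear respiratory factor 1) were on either strand in at least 1 window of 24.6% of these members. They were in at least 1 window of 9.8% of 11760 tested genes with an entry, and in 4.6% of all 32851 promoter windows. The shares of members and of tested genes count genes, which can have more than 1 window, and the last share counts windows. The letters CCGGAAG (GABPA, also called NRF2, an ETS-type factor) were in 23.0%, 17.1% and 8.9%, and AA, any 1 base, ATGGC, any 1 base, G (YY1) in 19.7%, 5.2% and 2.8%. None of these letter strings contains another, and a match is a description of the window, not a binding site shown by data. Shown are the 150 bases before the start of 4 members that fell in B6 recipient skin and hold at least 1 of these matches there, 5′ to 3′ on the gene's strand, with the matches in capitals. Atp5g2 (chr15:102671048-102671197, minus strand) holds the NRF1 letters, Atp5h (chr11:115419920-115420069, minus strand) NRF1 and then GABPA in reverse, Atp5j (chr16:84834977-84835126, minus strand) YY1 and then GABPA in 1 of its entries, and Cox6b1 (chr7:30626115-30626264, minus strand) GABPA in reverse.
Atp5g2: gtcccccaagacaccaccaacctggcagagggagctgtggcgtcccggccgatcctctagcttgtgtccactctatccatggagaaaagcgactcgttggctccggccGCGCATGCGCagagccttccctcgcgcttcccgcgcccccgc
Atp5h: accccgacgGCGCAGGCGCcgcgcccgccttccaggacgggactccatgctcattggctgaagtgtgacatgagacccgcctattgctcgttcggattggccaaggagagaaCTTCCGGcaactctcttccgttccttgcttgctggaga
Atp5j: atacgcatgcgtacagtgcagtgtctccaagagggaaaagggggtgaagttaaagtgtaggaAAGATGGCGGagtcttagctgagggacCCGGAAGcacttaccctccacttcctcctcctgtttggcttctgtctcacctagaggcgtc
Cox6b1: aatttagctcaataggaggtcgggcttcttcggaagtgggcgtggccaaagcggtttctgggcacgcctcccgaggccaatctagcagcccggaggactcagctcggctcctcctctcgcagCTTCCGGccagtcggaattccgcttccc
Of the 37 members that fell in B6 recipient skin, 33 had an entry and 19 of these held at least 1 of the 3 letter strings, as against 16 of 28 among the other members. Counted singly the 33 held NRF1 in 8, GABPA in 10 and YY1 in 6, and the 28 held them in 7, 4 and 6.

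The 9 symbols below the filter are mostly tissue isoforms. Cox4i2 (the lung-type isoform of subunit 4), Cox6a2, Cox7a1 and Cox8b (heart and skeletal muscle types), Cox6b2, Cox7b2 and Cox8c (testis types) and Ndufa4l2 had highest values over all 30 libraries between 2.15 for Cox7a1 and 31.1 for Ndufa4l2, the latter in library 2 of F1 recipient skin. Atp5s, coupling factor B of the ATP synthase, reached 15.2 in library 1 of B6 graft CD49a+ cells. Their ubiquitous partners Cox4i1, Cox6a1, Cox6b1, Cox7a2, Cox7b and Cox8a passed the filter. The 3 genes Atp5g1, Atp5g2 and Atp5g3, which encode the same mature c subunit of the ATP synthase ring, all passed it too. Ndufa4 is counted with complex I by its symbol, although later work places its protein in complex IV. Cox7a2l is a factor that joins complexes III and IV, and Atp5sl (also called Dmac2) has been described in complex I assembly.

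Per kilobase of transcript, averaged over the 30 libraries, the highest levels were those of Cox4i1 (404), a regulatory subunit of complex IV, Cox8a (376) and Ndufa4 (344). Over the circulating libraries alone the order differed, with Cox8a at 511, Ndufa4 at 452 and Cox4i1 at 447. In complex III the hinge protein gene Uqcrh stood at 269 and Uqcr11 at 116, above Uqcrfs1 at 60.5 and Uqcrc2 at 38.7. In complex V Atp5b, the catalytic beta subunit, stood at 253 and the stalk subunit gene Atp5h at 224, above Atp5k at 80.2 and Atp5sl at 8.92. The lowest ranked genes of complex I were Ndufs4 at 26.3 and Ndufb4 at 11.7, both per kilobase, and of complex IV Cox7c at 96.2 and Cox7b at 78.4. Ndufv3, Ndufc1, Ndufb8, Ndufb2, Uqcrq and Atp5g1 were not ranked because their annotated transcripts differ widely in length.

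In circulating cells, for 48 of 71 members all 12 blood and spleen libraries lay within 2-fold of each other, and the median ratio of the highest to the lowest library was 1.77. The median signal of the members per library was 70.4, 82.6 and 91.7 in B6 blood (lowest, median and highest library), 73.9, 76.3 and 80.1 in B6 spleen, 66.7, 69.1 and 77.9 in F1 blood and 78.4, 78.6 and 80.1 in F1 spleen. Together the 71 members made up 0.782% to 1.20% of the signal outside satellite-like predicted genes (which hold most of the signal in blood and spleen) in circulating libraries and 0.130% to 2.33% in skin libraries. By complex the circulating median library stood at 62.2 for complex I, 74.7 for complex III, 137 for complex IV and 112 for complex V. A few single libraries stood apart: Atp5e (the epsilon subunit of the ATP synthase head) was 476 in F1 blood library 3 and 44.2 to 92.6 in the other 11 circulating libraries, and Atp5o (the OSCP stalk subunit) was 216 and 345 in F1 spleen libraries 2 and 3 and 57.3 to 74.8 in the other 10.

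**Figure D1:**
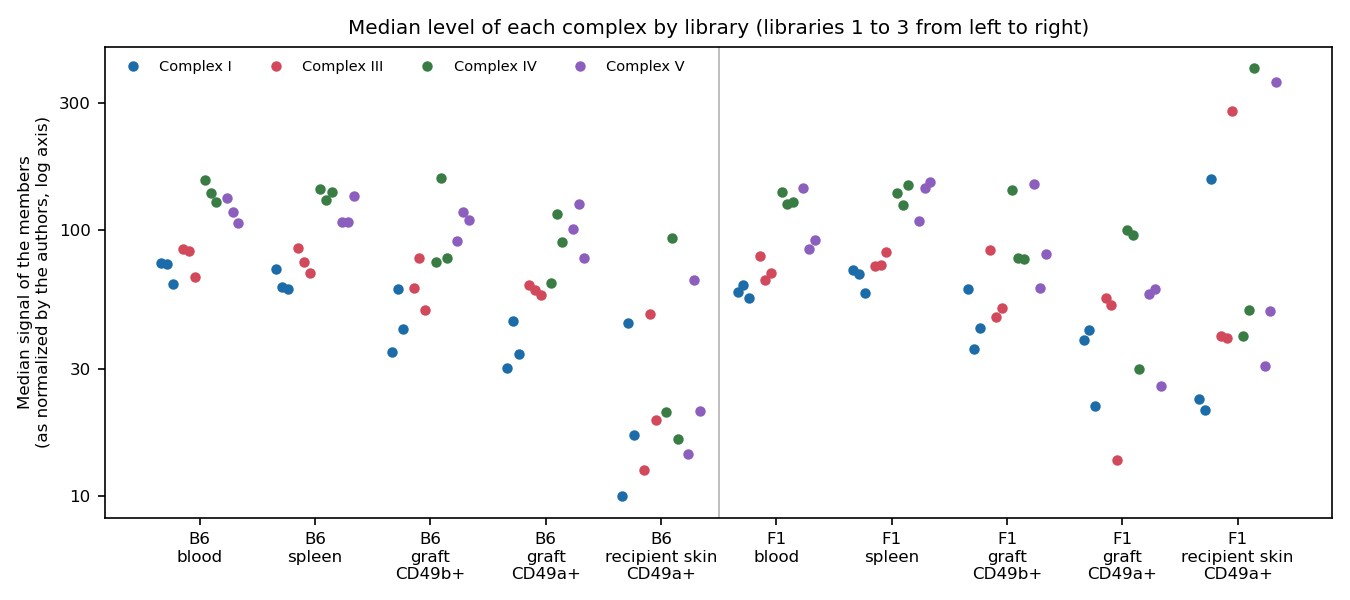
Each point is 1 library: the y axis is the median DESeq2-normalized signal (log axis) of the members of complex I, III, IV or V, and the x axis the 10 groups. Blood and spleen libraries lie close together (complex IV from 124 to 154), B6 recipient skin has libraries with medians of 9.94 to 92.8, and the highest points are those of F1 recipient skin library 3.

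No member was called between spleen and blood. In B6 the median fitted change from blood to spleen was -0.10 on the log2 scale (all genes 0.00), with 0 of 71 members past an adjusted p of 0.05 by limma and 0 with an unadjusted p under 0.05, against a background of 0.00623% of genes called. In F1 it was 0.14 (all genes -0.06), again with 0 called by limma, a background of 0.00623% and 1 with an unadjusted p under 0.05. Here and below, shares of genes called refer to the adjusted p. For the unadjusted p no share of all genes was computed, so those counts have no background. The groups did not overlap for 10 members higher and 2 lower in F1 spleen, or 14.1% and 2.82% of the members, against 5% and 7.26% of all genes. Among them Ndufa4 was 209, 219 and 247 in F1 spleen and 191, 188 and 182 in F1 blood, and Uqcrh was 129, 113 and 123 against 104, 96.2 and 93.3. Atp5f1, the b subunit of the stalk, went the other way with 203, 209 and 191 in F1 spleen and 358, 316 and 237 in F1 blood. In B6 3 members were higher in spleen without overlap (4.61% of genes) and 4 lower (5.53%).

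No member was called between the models in circulating cells. Between F1 and B6 spleen the median change was 0.00 (all genes -0.03), and 0 members were called by limma or had an unadjusted p under 0.05, beside 0.175% of genes called. Between F1 and B6 blood the median was -0.20 (all genes 0.04), again with 0 called, 0 at an unadjusted p under 0.05 and 0.162% of genes called. In blood 15 members were lower in F1 without overlap (8.41% of genes) and 1 higher (9.09%). Cox4i1 was 276, 309 and 290 in F1 blood and 459, 469 and 335 in B6 blood, and Ndufb11, an accessory subunit encoded on the X chromosome, was 58.9, 61.3 and 55.8 against 95.3, 123 and 72.7. Every F1 blood library was below every B6 blood library for both genes. Strain, allele number, graft genotype and day differ together between the models and cannot be told apart.

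In CD49b+ cells of the graft most members stood somewhat lower than in spleen, but none was called. The median library value was 51.4, 54.3 and 74.8 in B6 graft CD49b+ cells and 42.7, 58.3 and 81.1 in F1. In B6, 62 of 71 fitted changes were negative with a median of -0.46 (all genes 0.33), and in F1 68 of 71 with a median of -0.54 (all genes 0.26). limma called 0 members in both, beside 4.07% of genes in B6 and 12.2% in F1, with 0 members at an unadjusted p under 0.05 in B6 and 2 in F1. The smallest adjusted p was 0.352 in B6 (Ndufb3, an accessory subunit) and 0.115 in F1 (Atp5o). On 2 other scalings the sign of these medians turned: with the same total in each library they were 0.05 and 0.42, and relative to 20 pan-leukocyte transcripts 0.40 and 0.59. Each of these scalings multiplies all genes of a library by 1 factor, so it moves the median of all genes as well. Library 2 of the B6 group and library 1 of the F1 group carried the highest values, and without them the medians were -0.74 and -0.87.

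Libraries of the graft CD49b+ groups varied more than those of the spleen. Cox8a, a ubiquitous complex IV subunit, was 90.1, 300 and 82.6 in B6 graft CD49b+ cells and 312, 258 and 279 in B6 spleen. In F1 it was 266, 124 and 148 in the graft and 275, 274 and 259 in spleen. The second B6 library and the first F1 library lay among the spleen values, and the other graft libraries lay below them. The pan-leukocyte level of the same libraries was 43.6%, 81.4% and 48.5% for the B6 model and 43.3%, 38.8% and 46.6% for the F1 model, and its part in the result was not tested. In B6, 10 members were lower in the graft with no overlap, 14.1% of the members beside 12.8% of all genes, and in F1 17, or 23.9% beside 17.1%.

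Some members showed their difference in each library. Atp5k, a membrane subunit of the ATP synthase that takes part in its dimers, was 14.8, 26.0 and 14.7 in B6 graft CD49b+ cells and 43.4, 37.4 and 39.6 in B6 spleen (2.18-fold lower, log2 change -1.12 with a standard error of 0.75, adjusted p = 0.396 by limma). Ndufa8, an accessory subunit of complex I, was 37.2, 29.3 and 14.8 in F1 graft CD49b+ cells and 64.8, 52.9 and 57.0 in F1 spleen (2.24-fold lower, log2 change -1.17, adjusted p = 0.258). Neither difference passed the threshold. Ndufs1, which encodes the largest core subunit of complex I and carries iron-sulfur clusters, was the single member higher in F1 graft CD49b+ cells without overlap, with 109, 147 and 104 against 79.8, 74.7 and 98.4 in F1 spleen, a log2 change of 0.50 and an adjusted p of 0.510. In the background 29.3% of genes were higher without overlap.

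**Figure D2:**
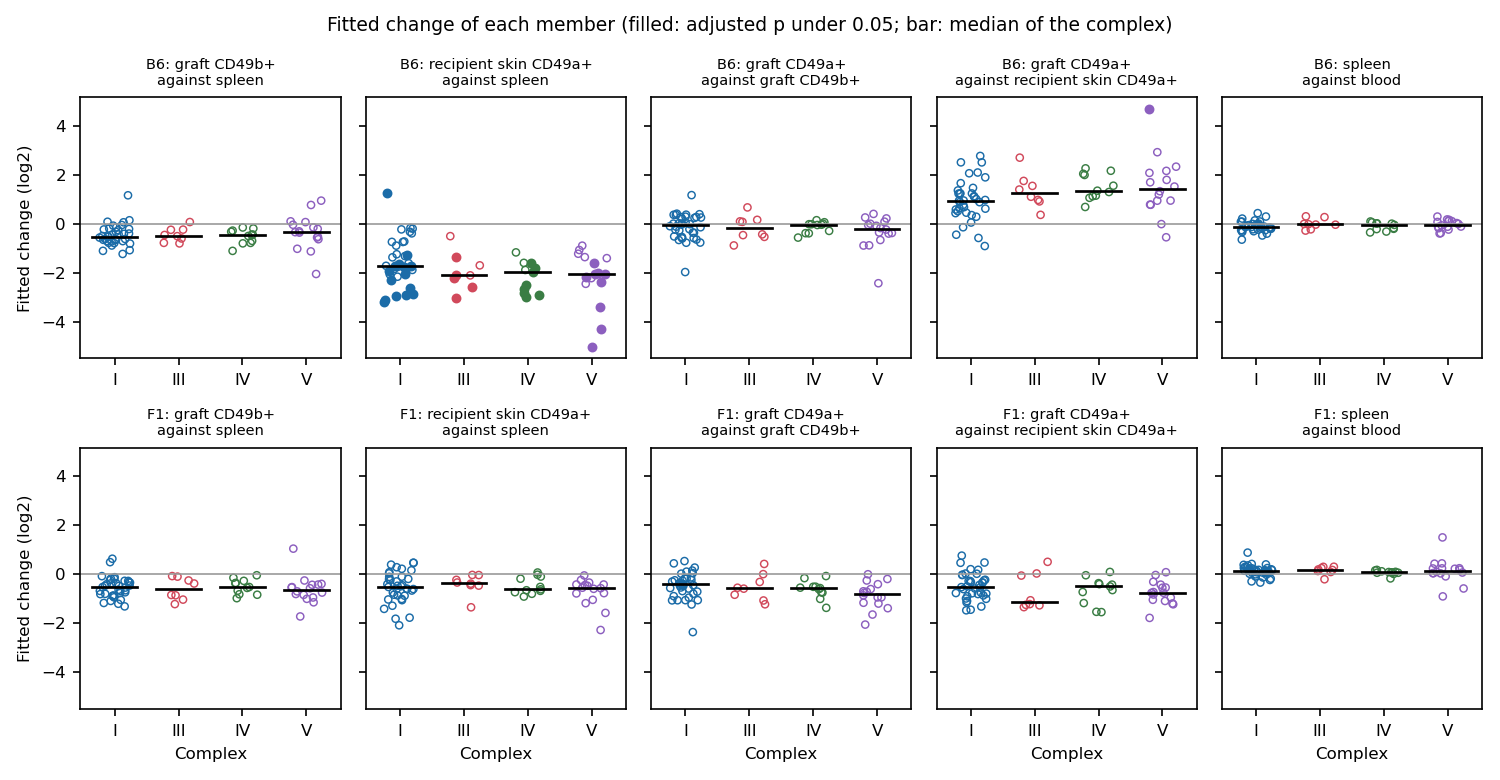
Each point is 1 member: the y axis is its fitted log2 change and the x axis its complex, with filled points for an adjusted p under 0.05 and a bar for the median of the complex. Filled points are in the panel of B6 recipient skin against spleen, where 37 members fell and 1 rose on the deposited scale. The panel of B6 graft CD49a+ against recipient skin has 1 more, a rise. On the pan-leukocyte scale the median against spleen in B6 recipient skin turned from -1.81 to 0.18, and the median of all genes moved up as well.

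Recipient skin CD49a+ cells of the B6 model gave nearly all of the calls. Against spleen, 37 of 71 members (52.1%) fell and 1 rose by limma at an adjusted p under 0.05, beside 11% of all genes that fell and 17.9% that rose. The median fitted change of the members was -1.81 (all genes 0.40), negative on every scaling tried except relative to the pan-leukocyte transcripts, where it was 0.18 and all genes stood at 2.09. In 52 members every recipient library was below every spleen library, as for 16.3% of genes. The fall was seen in 15 of 36 members of complex I (median -1.72), 5 of 8 of complex III (-2.11), 8 of 11 of complex IV (-1.98) and 9 of 16 of complex V (-2.04). As a share of the summed signal of the members, complex I took 38.8% to 50.6% in the 3 recipient libraries and 30.2% to 33.6% in circulating libraries. Complex IV took 13.2% to 19.6% and 21.6% to 25.3%, so that neither complex overlapped between recipient skin and circulating cells, while the ranges of complexes III and V did. Single high values enter these shares: Ndufs1 at 374 in library 1, and the accessory subunit gene Ndufb7 at 686 in library 2 beside 4.91 and 0.665 in libraries 1 and 3. In library 2 the members summed to 5878, of which complex I held 2337. With the Ndufb7 value left out, both shares of library 2 would lie within the circulating ranges. The lack of overlap in that library thus rests on 1 gene.

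This count rests on few libraries. The member median was 13.4 and 17.3 in B6 recipient libraries 1 and 3 and 58.8 in library 2, whose pan-leukocyte level was 76.0% against 16.8% and 10.5%; the part of that level in the result was not tested. Of 71 members, 66, 48 and 67 were below the whole circulating range in libraries 1, 2 and 3, and 10, 0 and 6 were listed at 0. The number that fell was 2 without library 1, 13 without library 3 and 50 without library 2. For fits other than the main model no share of all genes called was computed. It was 12, 17 and 9 without spleen library 1, 2 or 3. Leaving aside libraries 1 and 3 with the other low pan-leukocyte libraries, so that the B6 recipient group kept 1 library assumed to vary like the rest, 3 fell and the median was -0.66. The 11 keratinocyte markers summed to 823, 39.9 and 206 in the 3 libraries, the 14 NK markers to 669, 6159 and 766.

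By role in complex I, of its 7 core subunits 2 fell and 1 rose, with a median of -0.72, and of 28 accessory subunits 12 fell with a median of -1.74. Ndufa13, an accessory subunit also known as GRIM-19, was 168, 144 and 164 in B6 spleen and 5.25, 84.1 and 11.2 in B6 recipient skin. The gene lies at 69894180 to 69902558 on the minus strand of chromosome 8 (GRCm38, GENCODE M21). It was 8.53-fold lower (log2 change -3.09 with a standard error of 0.79, adjusted p = 0.00608). Ndufb9, an accessory subunit of the membrane arm, was 78.6, 59.1 and 77.4 in spleen and 0, 35.7 and 12.6 in recipient skin, 9.09-fold lower with an adjusted p of 0.0113. No recipient library of either gene reached the lowest spleen value. Ndufa4 was 217, 205 and 225 in spleen and 25.2, 81.4 and 19.0 in recipient skin, 6.18-fold lower.

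Of the core subunits around the NADH and quinone sites, some fell and others did not pass the threshold. Ndufv2 and Ndufs8, which hold iron-sulfur clusters, fell with log2 changes of -1.72 (adjusted p = 0.0345) and -1.76 (adjusted p = 0.0479). Ndufv1, the flavin-binding NADH site, was 52.0, 60.9 and 41.2 in spleen and 26.0, 72.2 and 34.6 in recipient skin, with an adjusted p of 0.710. Ndufs7, next to the quinone site, was 73.1, 82.9 and 78.1 in spleen and 40.0, 61.8 and 84.0 in recipient skin, with an adjusted p of 0.496. In both the groups overlapped. Ndufs1 (chromosome 1, 63143596 to 63176833, minus strand) rose 2.38-fold (log2 change 1.25 with a standard error of 0.46, adjusted p = 0.0410), with 70.8, 74.2 and 65.2 in spleen and 374, 87.0 and 145 in recipient skin. All 3 recipient libraries were above all 3 spleen libraries, library 1 by the widest margin, as for 25% of all genes. Without that library the change was 0.67 with an adjusted p of 0.291, and without any 1 of the spleen libraries or recipient library 3 the adjusted p lay between 0.0671 and 0.105.

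In complex III, Uqcrfs1 (chromosome 13, 30540308 to 30545362, minus strand), the Rieske iron-sulfur protein that passes electrons from quinol to cytochrome c1, was 102, 103 and 93.3 in B6 spleen and 8.80, 91.0 and 12.9 in recipient skin. It fell 4.31-fold (adjusted p = 0.00890), with library 2 just below the lowest spleen library and the other libraries far below. Uqcrb, a small matrix-side subunit, was 77.8, 64.5 and 65.3 against 0, 24.7 and 22.8 and fell 8.23-fold (adjusted p = 0.0215). Among the 5 small subunits 3 fell, with a median of -2.22. Of the core proteins that form the matrix side, Uqcrc1 fell with a log2 change of -1.33, while Uqcrc2 was 65.1, 84.9 and 72.6 in spleen and 18.6, 62.8 and 116 in recipient skin, overlapping and with an adjusted p of 0.511.

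Complex IV had the largest share of members that fell. Of its 10 subunits 7 fell, with a median of -2.23, and so did Cox7a2l. Cox7b was 104, 105 and 99.4 in spleen and 3.87, 64.4 and 8.72 in recipient skin (7.13-fold lower, adjusted p = 0.00601). Cox8a (chromosome 19, 7215153 to 7217616, minus strand) was 312, 258 and 279 against 30.8, 158 and 16.2 (6.39-fold lower, adjusted p = 0.00677). Both genes encode small membrane subunits, and in both every recipient library was below every spleen library with library 2 closest to them. Cox7a2, 142, 129 and 134 against 3.98, 82.6 and 12.9, was 7.59-fold lower (adjusted p = 0.00689). Cox6b1, which faces the intermembrane space and whose promoter is printed above, was 108, 112 and 117 against 5.67, 70.9 and 16.4 (5.60-fold lower, adjusted p = 0.0100). Cox4i1, the gene with the highest level per kilobase over all 30 libraries, did not pass the threshold. It was 340, 297 and 344 in spleen and 140, 234 and 92.6 in recipient skin, with an adjusted p of 0.0922 by limma.

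By role in complex V, of the 5 subunits of the catalytic head 1 fell (Atp5d, log2 change -2.18), and the genes of the alpha and beta subunits, which form the catalytic sites, did not pass the threshold: Atp5b was 589, 451 and 534 in spleen and 167, 407 and 325 in recipient skin (adjusted p = 0.211), and Atp5a1 was 479, 471 and 381 against 173, 438 and 122 (adjusted p = 0.137). Of the 3 ring genes 2 fell, of 4 stalk subunits 3, and of 3 membrane subunits 3. Atp5g2, with the NRF1 letters shown above, was 53.5, 101 and 74.0 in spleen and was listed at 0, 53.3 and 0 in recipient skin. It had the smallest adjusted p of all members (0.00262), but library 2 was barely below the lowest spleen library. The fitted 19.8-fold difference depends on the value added before the logarithm: the log2 change was -4.30 with 1 added and -2.80 with 5 added. Atp5h, a stalk subunit, was 211, 195 and 183 against 0, 104 and 63.5 (adjusted p = 0.0132), and Atp5l, a membrane subunit, was 123, 113 and 89.8 against 0, 37.2 and 0 (adjusted p = 0.0258).

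The c-ring genes, which share a product, can be compared with each other across groups. Atp5g3 was 87.9, 76.0 and 161 in B6 spleen and 13.4, 58.0 and 8.06 in B6 recipient skin and fell with a log2 change of -2.39 (adjusted p = 0.0147). Atp5g1 was 102, 76.9 and 126 against 22.8, 68.3 and 32.4, with a log2 change of -1.40 and an adjusted p of 0.176. All 3 genes were lower in every recipient library than in every spleen library, and the differences between their changes were not tested.

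**Figure D3:**
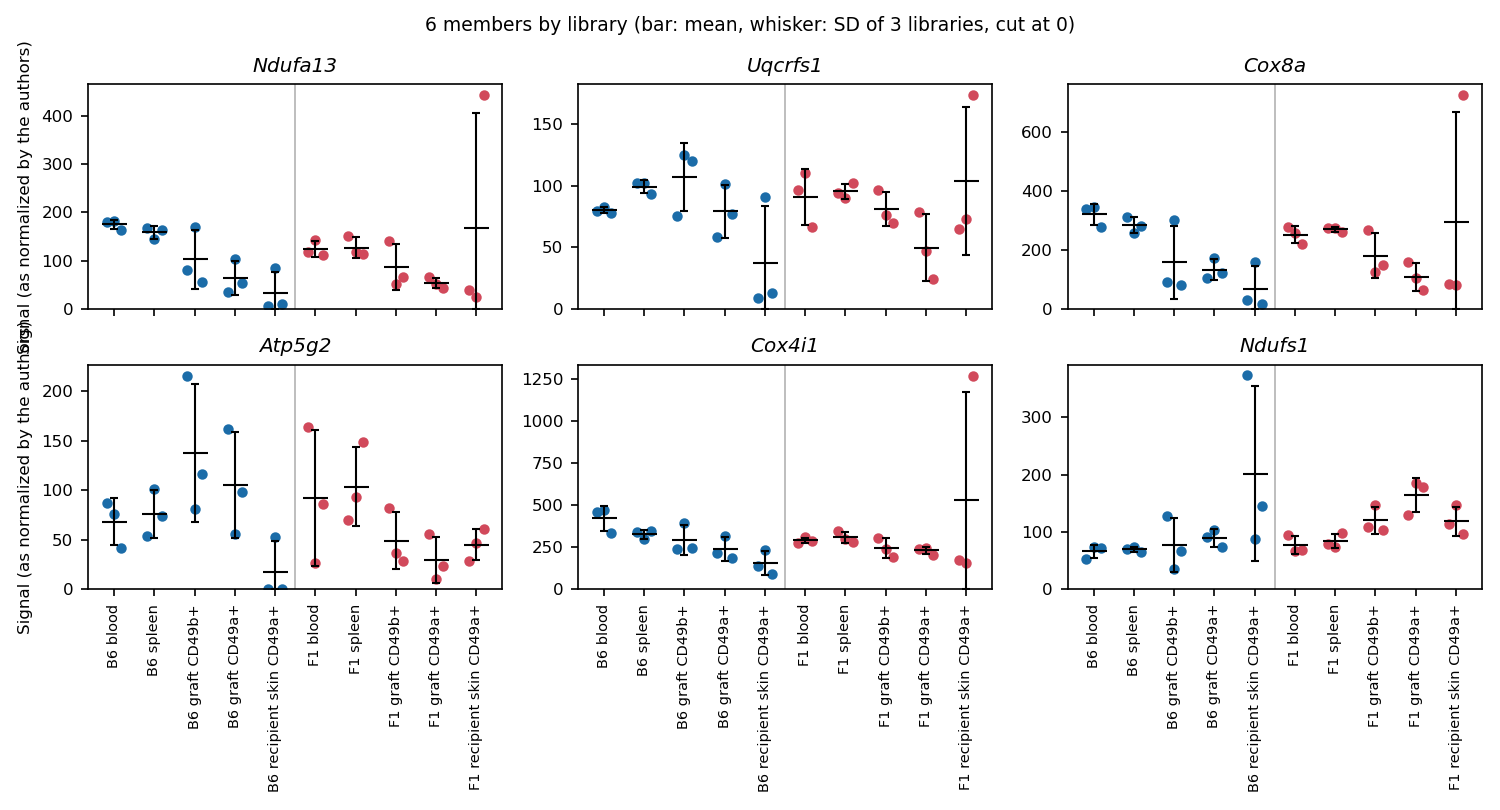
The y axis is the DESeq2-normalized signal of 6 members (Ndufa13, Uqcrfs1, Cox8a, Atp5g2, Cox4i1 and Ndufs1) and the x axis the 10 groups, with a point for each library, a bar at the mean and a whisker for the SD of 3 libraries. In B6 recipient skin Ndufa13 has values of 5.25, 84.1 and 11.2 against 144 to 168 in spleen, and Ndufs1 has its highest value of 374.

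Of the 37 members that fell, 10 were listed at 0 in at least 1 recipient library, and for those a fitted fold depends on the value added. In 3 of the 37, recipient library 2 was at or above the lowest circulating library. The transcripts of the members are short, with a median of 732 bases against 2621 over all tested genes, and 49 of 71 (69.0%) are under 1 kilobase against 11.2% of tested genes. Among all genes under 1 kilobase 19.1% fell in B6 recipient skin with a median change of -0.16, and among the 49 short members 28 fell with a median of -1.99. Of the 17 members of 1 to 2 kilobases 9 fell, beside 12.6% of genes of that length. Of the 5 members of 2 to 4 kilobases 0 fell and Ndufs1 rose. The part of length in the result was not tested.

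F1 recipient skin CD49a+ cells gave no call, and 1 library stood far from the others. limma called 0 of 71 members against F1 spleen, beside 15.7% of all genes, and 5 members were lower at an unadjusted p under 0.05. The median change was -0.48 (all genes 0.35), and the smallest adjusted p was 0.117. The member median was 26.9 and 31.0 in 2 libraries and 230 in library 3, which was the highest of all 30 libraries for 60 of the 71 members. There 62 members were above the whole circulating range, while in libraries 1 and 2 63 and 59 were below it. Without library 3, 26 members fell and the median was -1.48. The share of all genes called was not computed for this fit or for the scalings below. Without library 1 or 2 the medians were 0.05 and -0.02. The sign of the median also turned on 2 other scalings: with the same total in each library it was 0.86 and 10 members rose, and relative to the pan-leukocyte transcripts it was 1.88 and 23 rose. On these scalings the median of all genes was 1.48 and 2.29.

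Library 3 was high across the complexes. Relative to the F1 spleen mean its median ratio was 2.69 over the 71 members, from 0.584 for Atp5g2 to 6.57 for Atp5g1, with 69 members above 1. By complex the medians were 2.72 for complex I, 3.02 for complex III, 3.14 for complex IV and 2.49 for complex V. Ndufa4 was 26.1, 12.6 and 792 in the 3 libraries and 209, 219 and 247 in F1 spleen, and Cox8a was 83.0, 79.3 and 723 against 275, 274 and 259. Libraries 1 and 2 were thus far below spleen and library 3 far above it. Atp5g2 went against this pattern with 28.7, 46.2 and 60.5 in recipient skin and 69.5, 93.4 and 148 in spleen, the single member whose 3 recipient libraries were all below all spleen libraries, while 11.7% of genes were. Its log2 change was -1.17 with an adjusted p of 0.407.

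Library 3 also differed in markers of other cells. Its pan-leukocyte level was 9.74%, against 30.2% and 19.0% in libraries 1 and 2. Its 11 keratinocyte markers summed to 2045 against 73.0 and 368, and its fibroblast markers to 2078 against 269 and 347. The epithelial genes Krt8 and Perp and the lens and muscle chaperone gene Cryab, chosen after their values were seen, stood at 190, 1461 and 681 in library 3 and at no more than 14.2, 703 and 13.0 in the other 29 libraries. Among further genes chosen in the same way, Krt18 and Sox9 were also highest there (75.6 and 700). Krt14 was not: it stood at 338 there and at 1004 and 564 in B6 graft CD49a+ libraries 1 and 3. The NK marker sums, 1704, 1764 and 1927, were close to each other in the 3 libraries. The part of these transcripts in the members' levels was not tested.

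**Figure D4:**
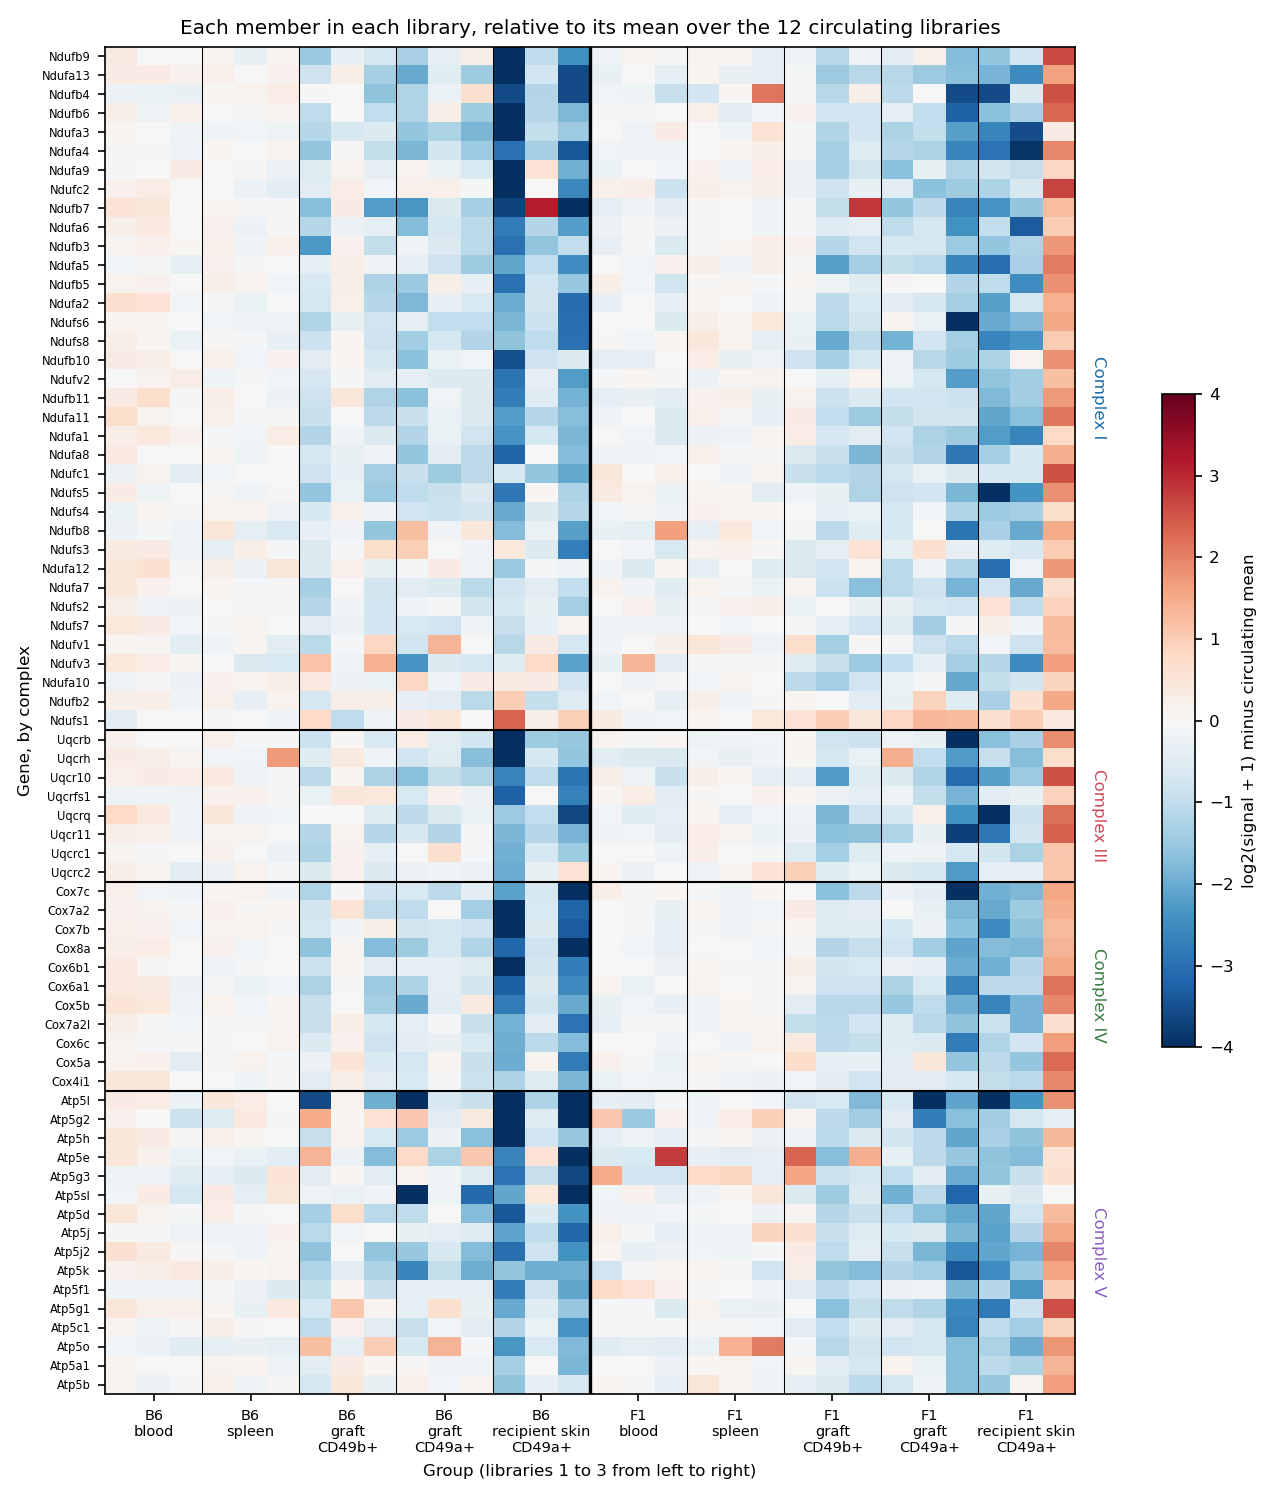
Each row is 1 of the 71 members, ordered by complex, each column 1 library, and the colour is log2(signal + 1) minus the mean of the 12 circulating libraries. Libraries 1 and 3 of B6 recipient skin are low in most rows (66 and 67 members below the circulating range), and library 3 of F1 recipient skin is high in most (62 members above it).

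Against the spleen of its own model, the F1 change in recipient skin was less negative than the B6 change, but no member's difference was called. The median difference (F1 minus B6) was 1.24, positive for 66 of 71 members. limma called 0 members beside 0.0125% of genes, with a smallest adjusted p of 0.653. At an unadjusted p under 0.05 by limma 10 were higher, a count without a share of all genes beside it. Without F1 library 3 the median was 0.23, and with the low pan-leukocyte libraries left aside it was -1.15. For graft CD49b+ cells the median difference was -0.05, with 0 called, 1 member lower at an unadjusted p under 0.05 and a background of 0%.

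Within the graft, CD49a+ and CD49b+ cells of the B6 model did not differ by any call. The median change was -0.08 (all genes 0.09), with 0 members called by limma, 2 lower at an unadjusted p under 0.05 and 0.0125% of genes called. Its sign turned without CD49b+ library 2, where the median was 0.21. Relative to the pan-leukocyte transcripts the median was 1.38, but that scaling multiplies all genes of a library by 1 factor. It therefore moves the median of all genes as well. Ndufv3, a small subunit at the NADH end, was 10.8, 40.3 and 37.4 in CD49a+ cells and 131, 52.2 and 159 in CD49b+ cells, with no overlap (3.32% of genes were lower without overlap), a log2 change of -1.97 and an adjusted p of 0.639. In F1 the median was -0.54 (all genes 0.11), with 0 called, 1 lower at an unadjusted p under 0.05 and a background of 0.00623%. Without F1 graft CD49a+ library 3, which had a member median of 23.4 against 50.3 and 54.5 in the others, it was -0.16. Without CD49b+ library 1 it was -0.28. Uqcrc2 was 52.6, 49.3 and 15.2 in F1 graft CD49a+ cells and 149, 55.2 and 64.4 in CD49b+ cells, without overlap (as for 3.75% of genes) but with an adjusted p of 1.

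Between CD49a+ cells of graft and recipient skin of the B6 model, 65 of 71 fitted changes were positive with a median of 1.13 (all genes 0.06). At an adjusted p under 0.05 by limma 1 member rose, beside 0.193% of all genes. At an unadjusted p under 0.05 24 were higher, a count without a share of all genes beside it. In 12 members (16.9%) every graft library was above every recipient library, as for 4.06% of genes. The called member was Atp5g2, with 162, 55.3 and 97.7 in graft CD49a+ cells and 0, 53.3 and 0 in recipient skin, a log2 change of 4.67 and an adjusted p of 0.0375. The lowest graft library and recipient library 2 were nearly equal. The adjusted p by limma was between 0.0826 and 0.153 without graft library 1 or 3 or recipient library 1 or 3. Without recipient library 2, 19 members rose, and the share of all genes that rose was not computed for that fit. Uqcrb, with 83.7, 48.7 and 38.9 against 0, 24.7 and 22.8, and Cox6b1, with 94.4, 91.3 and 84.4 against 5.67, 70.9 and 16.4, did not overlap either, at adjusted p of 0.237 and 0.181. Both groups hold libraries with low pan-leukocyte levels, and with those left aside the median was 0.28.

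In F1 the same comparison had the opposite sign. The median was -0.58 (all genes 0.17), with 0 members called by limma, 4 lower at an unadjusted p under 0.05 and 0.0249% of genes called. Without recipient library 3 it was 0.45, without recipient library 1 or 2 it was -1.06 and -1.13, and without graft library 3 it was -0.22. Atp5sl was 5.32, 10.5 and 1.66 in graft CD49a+ cells and 18.7, 15.3 and 23.3 in recipient skin, without overlap (as for 3.42% of genes), with an adjusted p of 0.632.

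**Figure D5:**
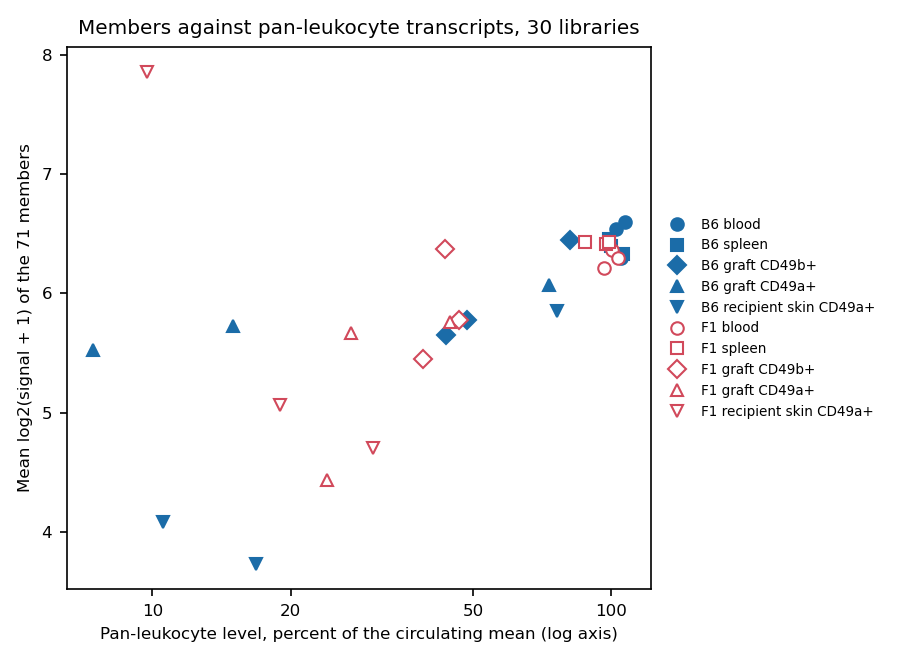
The x axis is the level of 20 pan-leukocyte transcripts as a percent of the circulating mean (log axis), the y axis the mean log2(signal + 1) of the 71 members, and each point 1 of the 30 libraries, by group. Libraries 1 and 3 of B6 recipient skin have 16.8% and 10.5% on the x axis with means of 3.73 and 4.08, while F1 recipient skin library 3 has 9.74% with a mean of 7.86.

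Other genes of the pathway, on lists chosen with earlier results of these data known, are given here for B6 recipient skin against spleen, where 11% of all tested genes fell and 17.9% rose. Of 4 complex II genes, which feed electrons from succinate, 0 rose and Sdhb fell 3.05-fold (adjusted p = 0.0205), from 148, 137 and 134 to 25.1, 93.9 and 38.7. Of 13 citric acid cycle genes 0 rose and 3 fell: Cs (citrate synthase), Ogdh and Dlst (subunits of 2-oxoglutarate dehydrogenase), 2.46-fold, 2.77-fold and 2.73-fold lower. Ndufab1, a complex I subunit and acyl carrier protein outside the symbol rule, rose 2.62-fold (adjusted p = 0.0399), from 51.3, 35.3 and 58.8 to 172, 108 and 106.

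Assembly factors moved in both directions, and their counts stand beside the same 11% of all genes that fell and 17.9% that rose. Of 14 tested complex I assembly genes 2 rose and 1 fell. Acad9, an acyl-CoA dehydrogenase that also builds complex I, was 73.3, 99.2 and 67.1 in B6 spleen and 1022, 323 and 1996 in recipient skin, where it rose 10.9-fold (adjusted p = 0.000651). Ndufaf3 was 19.2, 19.9 and 21.2 against 0, 4.96 and 0 and fell 11.6-fold (adjusted p = 0.00111). For Acad9 and Ndufaf3 no recipient library overlapped the spleen, with library 2 the nearest to it. Nubpl, which inserts iron-sulfur clusters, rose 6.47-fold (adjusted p = 0.00598). Of 16 complex IV assembly genes 5 fell (Cox10, Cox16, Coa3, Coa6 and Pet100) and Coa7 rose 10.6-fold (adjusted p = 0.000665). Of 6 for complex III Uqcc3 fell 5.70-fold (adjusted p = 0.0278).

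Acad9 was also high in the F1 skin groups. It was 546, 1030 and 600 in F1 graft CD49b+ cells and 1181, 1022 and 259 in F1 recipient skin, against 74.1, 92.0 and 87.7 in F1 spleen, and rose 8.18-fold (adjusted p = 0.00352) and 7.97-fold (adjusted p = 0.00316). These comparisons share the spleen libraries. Within F1 recipient skin library 3 was the lowest for Acad9 and the highest for 60 of the 71 members. Of 10 regulators of the pathway, 1 rose and 1 fell in B6 recipient skin (median -0.81), and 1 rose and 0 fell in F1 recipient skin (median -0.68), where 15.7% of all genes were called in either direction. Ppargc1a, the coactivator PGC-1 alpha known for driving mitochondrial biogenesis, was 2.63, 1.06 and 0 in F1 spleen and 19.2, 24.7 and 131 in F1 recipient skin, and rose there (adjusted p = 0.00135). In B6 recipient skin it rose 9.48-fold (adjusted p = 0.00582), from 3.69, 3.19 and 2.24 to 33.0, 18.4 and 81.3. Gabpa, whose product binds the GABPA letters, fell 5.36-fold there (adjusted p = 0.0282), from 22.7, 23.1 and 15.6 to 0, 12.5 and 3.55. For Gabpa, as for Ndufaf3, the fold depends on the value added because of the libraries listed at 0. For Ppargc1a it depends on that value too, because its spleen values are low. The Ppargc1a values of 131, 33.0 and 81.3 came from libraries with pan-leukocyte levels of 9.74%, 16.8% and 10.5%. B6 recipient library 2, at 76.0%, had 18.4. The part of that level in the rise was not tested.

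The mitochondrial DNA encodes 13 further subunits of the same complexes. They summed to 9826 to 14259 in circulating libraries and 5415 to 143020 in skin libraries. Against spleen 8 of 13 rose in B6 graft CD49b+ cells (median 2.24), beside 4.07% of all genes called in either direction. In F1 graft CD49b+ cells 0 of 13 rose or fell (median -0.07), beside 12.2% of all genes. In F1 recipient skin 8 of 13 rose (median 1.75), beside 15.7% of all genes. In B6 recipient skin, where 37 of the 71 nuclear-encoded members fell, 0 of 13 passed the threshold (median 0.88).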

How the data were processed

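The table deposited by the authors holds 1 signal per gene and library, made with smartRNA-Seq libraries, Salmon quantification and DESeq2 normalization on GRCm38/mm10, per the submitters' processing notes; the sources used here name no versions, annotation or filters. The signal is not per length, and its values are not whole counts, so that read depth is unknown; the sums in the report stand in for it. Of 30616 entries 30587 were used (1 without a name, 27 with symbols turned into dates, 1 with a non-numeric cell), and 2 unnamed numeric columns were not used.

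The 16045 genes that reached a signal of 10 in 3 or more libraries entered limma 3.58.1 (R 4.3.3) on log2(signal + 1). A single model held a mean for each group and all 30 libraries, variances were moderated by eBayes (trend, robust), and p-values of 14 comparisons were adjusted by Benjamini-Hochberg over all genes, with a threshold of 0.05. Folds are 2 raised to the fitted change and understate changes of low genes. The script was tested on simulated data. Tables and figures were made with Python 3.11.15, numpy 2.4.6, pandas 2.3.3 and matplotlib 3.10.9, and transcript lengths and symbols come from GENCODE M21 on GRCm38. The members, the lists and the markers were chosen with earlier results of these data known. Named members are those called (at most 8 per comparison), the highest and lowest per kilobase in each complex, the largest changes without overlap between groups, and fixed isoforms; members outside this rule were chosen after their values were seen.

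Library numbers in the labels recur in each group. Deviations of same-numbered libraries from their group means correlated at 0.14, 0.40 and 0.15 between B6 graft and recipient skin CD49a+ cells. The numbers could be read as pairs there, from the data and not from the labels. The main model held no pairs, so the p-values of that comparison are unpaired, and a replicate block entered only as an alternative. In the other comparisons at least 1 correlation was at or under 0.1. The 12 alternatives changed the pseudocount, the filter, the scaling, library weights, a replicate block, which libraries share the spread, the tissue used as reference and single libraries; 1 more, leaving aside the low pan-leukocyte libraries, was added after the data were seen.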

Additional observations from a re-analysis of the deposited data

Results flagged for a closer look

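Ndufs6, a complex I subunit that binds zinc, differed between spleen and blood in opposite directions in the models: every B6 spleen library (29.7, 29.3 and 28.0) was below every B6 blood library (34.6, 34.9 and 32.5), a log2 change of -0.22, and every F1 spleen library (38.1, 34.2 and 42.9) was above every F1 blood library (31.6, 32.6 and 21.7), a log2 change of 0.43. Both adjusted p were 1 by limma, and the difference between the models was not tested.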

How the results depend on the processing

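Over 42 counts and medians and 747 values under the alternatives, 681 stayed within the limits and 66 moved, and 19 results never moved. Those 19 were counts of 0 that stayed at 0, apart from the median of F1 graft CD49a+ against graft CD49b+ cells. That median ranged from -0.82 to -0.09. The count of 37 that fell in B6 recipient skin moved in 10 of 18 alternatives. A count stayed if it was within 1.5 times the main count, and moved if it went to or from 0. A median stayed if its shift was no more than the SD of the members' mean between libraries of the groups compared. Its sign was not part of this rule, so a median that turned sign could stay. Scaling moved the median of all genes in B6 recipient skin against spleen from 0.40 to 1.35 (same total in each library), -0.13 (the same without satellite-like genes), -0.05 (quantile) and 2.09 (pan-leukocyte scale). The cause of the shifts given here was not tested. Shares of all genes called were not computed under the alternatives, so the counts of members below have no background.

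In B6 recipient skin 37 members fell, against 21 with no filter, 7 with the same total (all of these among the 37), 1 on the pan-leukocyte scale (Atp5g2), 0 with the groups compared fitted alone, 3 with the low pan-leukocyte libraries left aside (2 of them among the 37) and 2 to 50 without 1 library (36 of the 50 among the 37). With the replicate block 33 fell, 32 of them shared, and the block moved no count or median past its limit in any comparison. The 1 rise there became 0 with no filter, quantile scaling, the same total without satellite-like genes, the groups alone or the low libraries left aside, and was 0 to 1 without 1 library. The 1 rise in B6 graft CD49a+ against recipient skin became 0 with a pseudocount of 5, quantile scaling, the same total without satellite-like genes, the groups alone or the low libraries left aside, and was 0 to 19 without 1 library.

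Counts of 0 became 4 that fell in B6 graft CD49b+ cells with library weights, 10 with weights and 3 with the groups alone in F1 graft CD49b+ cells, and in F1 recipient skin 15 with weights, 43 with the low libraries left aside and 0 to 26 without 1 library. In F1 recipient skin 10 rose with the same total and 23 on the pan-leukocyte scale. In the difference between models for recipient skin 0 to 2 rose without 1 library and 6 fell with the low libraries left aside, and in F1 graft CD49a+ against recipient skin 11 rose then.

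Medians moved as follows. With the same total they were 0.047 in B6 graft CD49b+ cells, -0.70 in B6 recipient skin, -0.34 in B6 spleen against blood, 0.42 in F1 graft CD49b+ cells, 0.86 in F1 recipient skin, -0.38 in F1 against B6 blood and 0.41 in the difference between models for graft CD49b+ cells. Without satellite-like genes they were -1.05 in B6 and -0.93 in F1 graft CD49b+ cells, -0.33 in F1 against B6 blood and 0.22 in F1 spleen against blood. On the pan-leukocyte scale they were 0.40, 0.18 and 1.38 in B6 graft CD49b+ cells, recipient skin and graft CD49a+ against CD49b+, 0.59 and 1.88 in F1 graft CD49b+ cells and recipient skin, 0.22 in F1 spleen against blood and 0.10 in F1 against B6 spleen, which was -0.057 after quantile scaling. With the low libraries left aside they were -0.66 in B6 recipient skin, 0.28 and 0.96 in B6 and F1 graft CD49a+ against recipient skin, and -1.15 in the difference between models.

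Without 1 library the medians ranged from -0.87 to -0.38 in F1 graft CD49b+ cells and from 0.084 to 0.17 in F1 spleen against blood.

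Of 10 single members with 179 values, 52 lost their call and 0 changed sign. Atp5g2 in B6 recipient skin lost it with the groups alone (adjusted p = 0.102) and the low libraries left aside (0.851). Tests on whole reads were not run, since the signal gives none.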
